A study of Mus musculus with 22 samples.

Results

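Livers of male C57BL/6 mice carrying a knockout of Slc10a1 (genotype Slc10a1-/-, here KO) were compared between 8 weeks of age (6 livers) and 4 weeks of age (3 livers). These 9 libraries were chosen by genotype and age from the 22 of the series. The same change of age in wild-type (WT) males of the strain, 4 livers at 8 weeks and 3 at 4 weeks, was used to separate KO changes that followed those of WT from KO changes that did not. Expression was measured by sequencing of poly(A) RNA from frozen whole liver. The labels give the same genotype for the KO mice of both ages and name no treatment, litter or cage, nor how the knockout was made. Each library is labelled as a separate liver sample.

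Slc10a1 encodes NTCP, the sodium-dependent transporter of the basolateral hepatocyte membrane that takes conjugated bile acids up from portal blood. Its loss leaves bile acids in the circulation, and sulfation is one of the routes by which bile acids are made more soluble and cleared. The interval studied follows weaning and spans puberty in the mouse. In that interval the growth of the liver slows, and it takes on the male or female pattern of gene expression that the rhythm of growth hormone sets.

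The 6 KO libraries of 8 weeks held 21366245 to 23927018 reads in genes and the 3 of 4 weeks 5496425 to 5764357, against 18950112 to 26066897 in WT livers at 8 weeks and 5796319 to 6956124 in WT livers at 4 weeks. A count of 0 allows up to 3 counts, which is 0.115 to 0.158 CPM (read counts scaled to a common library size) in a library of 8 weeks and 0.431 to 0.546 CPM in one of 4 weeks, for counting error alone. The 4-week libraries of both genotypes were paired-end and the 8-week libraries single-end, so age and library type cannot be told apart in either genotype. What the genotypes share of such a shift is removed from the difference between the KO change and the WT change. Hepatocyte identity genes averaged 12.05 to 12.94 log2 CPM in the KO libraries of both ages and 12.24 to 12.62 in the WT libraries. Replicates of the KO varied more than those of WT: the median SD of log2 CPM was 0.363 at 8 weeks and 0.415 at 4 weeks in KO, against 0.159 and 0.28 in WT. KO libraries 3 and 4 of 8 weeks stood apart from the other 4 of their group, and both were the highest or both the lowest of the 6 for 20.6% and 19.6% of the genes tested. Leaving both out was tried after this was seen.

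The age change depended on gene length in the same way in both genotypes. Over 5 equal groups of genes ordered by exon length, the median log2 fold change in KO was -0.53, -0.09, 0.09, 0.26 and 0.61 from the shortest to the longest genes, against -0.55, -0.18, 0, 0.22 and 0.6 in WT. The median of the difference lay between -0.04 and 0.04 in the 5 groups. With this trend taken out by an offset for length in each library, 71.2% of the genes called in KO were still called. Among the genes named below the KO calls lost included those of Fgf21, Ghr, Klf1 and Mki67, and the rise of Clock turned to a log2 fold change of -0.09. The calls for the difference between KO and WT were lost for Blvrb, Cd1d1, Dnajb1, Plxnd1, Sh3pxd2a, Slfn8 and Stip1.

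**Figure D1:**
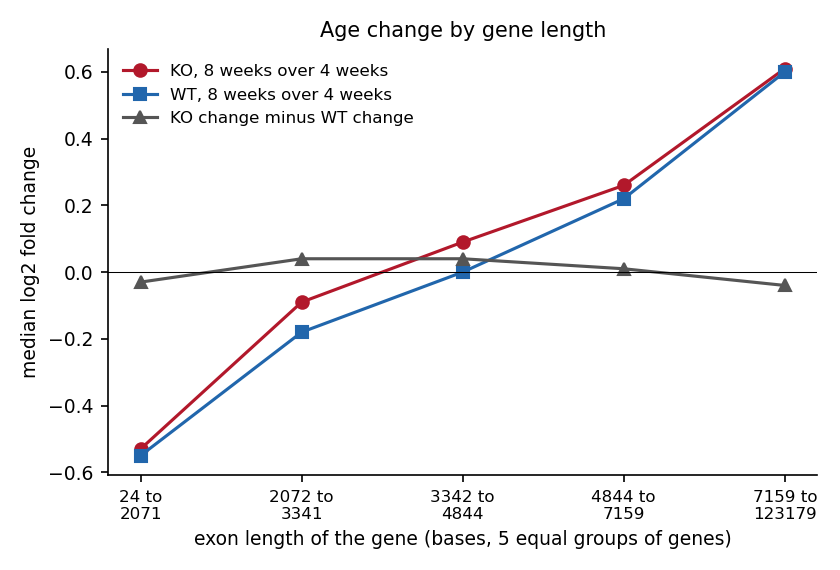
Median log2 fold change of 8 weeks over 4 weeks (vertical axis) in 5 equal groups of genes ordered by exon length in bases (horizontal axis), for KO (circles), WT (squares) and the KO change minus the WT change (triangles). Both genotypes run from below -0.5 in the shortest genes to 0.6 or more in the longest, while the difference stays within 0.04 of 0.

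Slc10a1 itself (chr12:80953183-80968705, GRCm38) stood at 49, 65.6 and 92.9 CPM (lowest, median and highest of 6) in KO livers at 8 weeks, against 110.3, 266 and 147 CPM in the 3 KO livers at 4 weeks. In WT livers the values were 433, 439, 454 and 447 CPM at 8 weeks and 586, 688 and 671 CPM at 4 weeks. Every KO library was below every WT library. The remaining reads fell with age in KO (log2 fold change -1.39, SE 0.28, adjusted p = 0.00325) and in WT (log2 fold change -0.53, SE 0.10, adjusted p = 0.00112). Their difference did not pass (-0.84, adjusted p = 0.245). Reads from any part of the gene were counted, and which part was deleted is not stated in the sources used here.

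Of 15302 genes tested, 5695 (37.2%) passed the threshold in KO, an adjusted p under 0.05 in edgeR's quasi-likelihood test. Of these, 2858 (18.7%) were higher at 8 weeks and 2837 (18.5%) lower. These shares are the background for the counts of KO calls in the gene lists below. In WT 7781 genes (50.8%) passed, 4071 higher (26.6%) and 3710 lower (24.2%). More genes were called in WT than in KO here, but fewer in 1 fit of all 16 libraries (7150 in KO, 5452 in WT) and among changes of at least 1 on the log2 scale (3814 in KO, 3543 in WT). The KO changes mostly ran with those of WT: 94.4% of the genes called in KO had the same sign in WT, beside 78.5% of all genes tested, and 4283 genes (28%) were called in both genotypes in 1 direction without a call for the difference. These shared changes had a median size of 1.28 on the log2 scale in KO and 1.06 in WT. Changes given below as a rise or a difference by a number, with no unit, are on the log2 scale. A further 1303 genes (8.52%) were called in KO and not in WT without a call for the difference, so whether they follow WT is undecided. Across genes, which are not independent replicates, the log2 fold changes of KO and WT had a Pearson correlation of 0.726 and a Spearman correlation of 0.717. With the length offset these were 0.712 and 0.677, and 3416 genes were shared. Both genotypes carry the same change of library type, so age and library type cannot be told apart in this agreement.

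The difference between the KO change and the WT change was called for 107 genes (0.699%), 56 with the KO change above the WT change (0.366%) and 51 below (0.333%). Within these, 65 genes (0.425%) were also called in KO and did not run opposite to WT. The WT change of 44 of the 65 was not called, 18 changed further in KO than in WT, and 3 changed less far. Another 21 genes (0.137%) were called in WT and not in KO, and the remaining 21 were called in both genotypes in opposite directions. Opposite calls numbered 44 (0.288%) when those without a call for the difference were included. The count of 107 depended on the setting. DESeq2 called 612 genes, which held 105 of the 107, and limma voom with sample weights called 704, which held 100. Leaving out any 1 of the 4 WT libraries of 8 weeks left 4 to 7 calls, WT library 2 or 3 of 4 weeks 15 or 2, and KO library 2, 3, 4, 5 or 6 of 8 weeks 43, 69, 65, 19 or 35. Leaving out KO library 1 of 8 weeks gave 429, KO library 1 of 4 weeks 164 and KO library 2 of 4 weeks 70. Sult1b1 was called in all 26 settings, and Siglec1 in all but the fit with replicate number as a block.

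**Figure D2:**
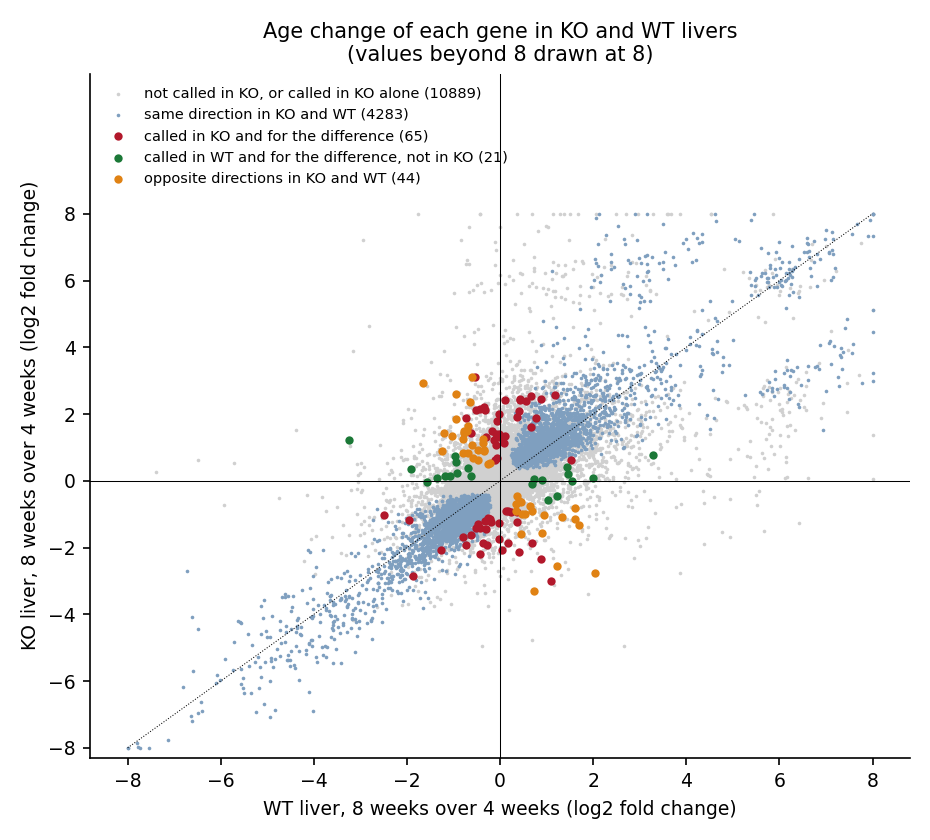
Each point is 1 of 15302 genes, with its log2 fold change of 8 weeks over 4 weeks in WT livers (horizontal axis) and in KO livers (vertical axis); colours give the outcome of the 3 tests, and the dotted line marks equal changes. The 4283 shared genes have the same sign in both genotypes, and some, such as Cyp4a14, lie well off the dotted line. The 65, 21 and 44 genes in the other colours also lie off it.

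Fatty acid synthesis genes were called mostly higher in both genotypes. Of 19 genes of this list tested, 9 were higher and 1 lower at 8 weeks in KO, with a median log2 fold change of 1.64, against 12 higher and 1 lower in WT (median 1.37) and a median of 0.12 over all genes in KO. The mean of the list in KO library 1 of 4 weeks was 4.3 log2 CPM, against 6.15 and 5.46 in libraries 2 and 3 of that group. Without library 1 of 4 weeks 7 genes were higher and 1 lower in KO, and with the length offset 6 were higher and 0 lower. Acacb, the mitochondrial acetyl-CoA carboxylase whose product restrains fatty acid oxidation, stood at 142, 201 and 331 CPM (lowest, median, highest) in KO livers at 8 weeks, against 19.3, 46.2 and 43.7 CPM at 4 weeks (log2 fold change 2.56, SE 0.38, adjusted p = 0.000584). The WT values were 106, 185, 148 and 194 CPM at 8 weeks and 38.2, 20.7 and 39.1 CPM at 4 weeks (log2 fold change 2.29, SE 0.26, adjusted p = 5.70e-05). The ages did not overlap in either genotype. Acly, which makes cytosolic acetyl-CoA from citrate, rose in both genotypes, with log2 fold changes of 2.01 in KO (adjusted p = 0.00152) and 1.47 in WT (adjusted p = 3.44e-05).

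Fatty acid oxidation genes and targets of PPAR-alpha, the receptor that drives fat burning, gave fewer calls in KO than in WT. Of 27 tested, 1 was higher and 8 lower in KO (median log2 fold change -0.46), against 1 higher and 24 lower in WT (median -1.40), and the difference was called for 0 of them (9 at an unadjusted p under 0.05, and 4 with DESeq2). Acadm, the medium-chain acyl-CoA dehydrogenase, stood at 258, 281 and 314 CPM in KO livers at 8 weeks, against 318, 764 and 774 CPM at 4 weeks (log2 fold change -1.14, SE 0.25, adjusted p = 0.00564). In WT it had 232, 240.3, 247 and 254 CPM at 8 weeks and 1000.4, 801 and 861 CPM at 4 weeks (log2 fold change -1.85, SE 0.11, adjusted p = 8.91e-07). KO library 1 of 4 weeks had the lowest Acadm value of its group, and its mean over the list was 6.06 log2 CPM, against 8.59 and 8.19 in the other 2 KO libraries of 4 weeks and 8.69 to 9.06 in the WT libraries of 4 weeks. Without that library, 14 of the 27 genes were lower in KO and 0 higher, and without KO libraries 3 and 4 of 8 weeks 5 were lower and 0 higher. Angptl4, a fasting-induced inhibitor of lipoprotein lipase, fell in both genotypes, with log2 fold changes of -1.25 in KO (adjusted p = 0.00849) and -1.17 in WT (adjusted p = 6.91e-05). Cyp4a14, a PPAR-alpha target that hydroxylates fatty acids, had 106, 599 and 1494 CPM in KO livers at 8 weeks and 1226, 6773 and 6127 CPM at 4 weeks, with WT values of 17, 85.3, 53.4 and 176 CPM at 8 weeks and 14064, 5978 and 6618 CPM at 4 weeks. Its log2 fold change was -2.71 (SE 0.83, adjusted p = 0.0262) in KO and -6.73 (SE 0.73, adjusted p = 3.85e-05) in WT. The KO call was lost without KO library 2 or 3 of 4 weeks or KO library 6 of 8 weeks (adjusted p up to 0.169 over the alternatives).

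Cholesterol synthesis rose in WT across nearly the whole list, 22 of 25 genes, and in KO for 5 of 25 with 0 lower, a share close to the 18.7% of all genes called higher in KO. The median log2 fold change was 0.76 in KO and 1.35 in WT, and the difference was called for 0 (3 at an unadjusted p under 0.05, and 2 with DESeq2). Dhcr7, which carries out the last step of the pathway, had 66.1, 106 and 179.7 CPM in KO livers at 8 weeks, against 24.5, 42.4 and 43 CPM at 4 weeks (log2 fold change 1.62, SE 0.40, adjusted p = 0.01). Its WT values were 96.6, 90.4, 72.3 and 71.4 CPM at 8 weeks and 17, 18.8 and 15.1 CPM at 4 weeks (log2 fold change 2.3, SE 0.15, adjusted p = 1.56e-06). The mean of the list in KO library 1 of 4 weeks was 4.07 log2 CPM, against 6.32 and 5.89 in the other 2 of that group. Without that library 2 genes were higher and 1 lower in KO, and 3 were called lower for the difference. For Dhcr7 at both ages the KO median lay above the WT range, and all 3 KO livers of 4 weeks were above all 3 WT livers of that age. Sc5d, the sterol C5-desaturase, rose by 1.44 in KO (adjusted p = 0.0109) and 1.23 in WT (adjusted p = 5.40e-06) on the log2 scale.

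Irs1 and Arg1 were each called in the same direction in both genotypes. Irs1, an insulin receptor substrate, rose, with 13.7, 21.1 and 41.5 CPM in KO livers at 8 weeks against 1.72, 4.22 and 4.61 CPM at 4 weeks (log2 fold change 2.74, SE 0.45, adjusted p = 0.00105; WT 1.66, adjusted p = 3.12e-05). Arg1, the last enzyme of the urea cycle and a periportal marker, had 1045, 1842 and 2509 CPM in KO livers at 8 weeks, against 4216, 6711 and 7267 CPM at 4 weeks. The log2 fold change was -1.81 (SE 0.30, adjusted p = 0.00114) in KO and -0.98 (SE 0.12, adjusted p = 7.02e-05) in WT. The Arg1 difference of -0.82 was not called (adjusted p = 0.276), but it passed in limma voom with sample weights (adjusted p = 0.0208, with 0.117 to 0.517 in the other alternatives). Of 13 periportal genes 2 were higher and 5 lower in KO, against 4 higher and 5 lower in WT. The difference was called for 0 of the 13 (7 at an unadjusted p under 0.05, and 1 with DESeq2), and voom called 5 lower. Hsd17b13, a lipid droplet protein, was among the lower ones in both genotypes (log2 fold change -2.01 in KO, adjusted p = 0.00012; -1.81 in WT, adjusted p = 1.42e-06). Of 13 pericentral genes 5 were higher and 0 lower in KO, against 8 higher and 2 lower in WT, and without KO library 1 of 4 weeks 3 were higher and 2 lower in KO. Cyp1a2, a pericentral cytochrome P450, had 277, 523 and 713 CPM in KO livers at 8 weeks and 22.8, 71.7 and 74.6 CPM at 4 weeks (log2 fold change 3.12, SE 0.49, adjusted p = 0.000811; WT 1.83, adjusted p = 0.00112). Slc1a2, a glutamate transporter of the pericentral zone, rose by 2.01 in KO and 1.87 in WT (adjusted p = 0.000993 and 1.36e-05).

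Igfbp2 and Peg3, 2 genes of the growing liver, fell in both genotypes. Igfbp2, an IGF-binding protein that growth hormone lowers, had 153, 267 and 458 CPM in KO livers at 8 weeks, against 496, 1380.1 and 1471 CPM at 4 weeks (log2 fold change -2.0, SE 0.40, adjusted p = 0.00341). The WT values were 192, 231, 242 and 194 CPM at 8 weeks and 803, 686 and 1037 CPM at 4 weeks (log2 fold change -1.96, SE 0.15, adjusted p = 4.47e-06), so the genotypes overlapped at both ages. Of 20 growth hormone signalling genes 8 were higher and 1 lower in KO, against 9 and 3 in WT. The 8 became 3 with the length offset and 4 without KO library 1 of 4 weeks, beside 18.7% of all genes. Jak2, the kinase of the growth hormone receptor, rose by 0.97 (adjusted p = 0.00236), and Ghr, the receptor, by 1.01 (adjusted p = 0.0242), a call that was lost without KO library 1 or 2 of 4 weeks. Of 16 oncofetal and imprinted growth genes 2 were higher and 4 lower in KO, against 2 and 5 in WT, with medians of 0.02 and -0.21. Over all genes 18.7% were higher and 18.5% lower in KO. Without KO libraries 3 and 4 of 8 weeks 4 of the 16 were higher and 3 lower in KO. Peg3, a paternally expressed imprinted gene, had log2 fold changes of -2.06 in KO and -2.43 in WT (adjusted p = 0.000761 and 0.000489). Igf2bp3, an oncofetal RNA-binding protein, had 0.727, 1.2 and 1.97 CPM in KO livers at 8 weeks and 6.72, 13.7 and 6.8 CPM at 4 weeks (log2 fold change -2.84, SE 0.34, adjusted p = 0.000178). Its WT values were 1.74, 1.21, 1.01 and 2.17 CPM at 8 weeks and 2.58, 2.41 and 2.99 CPM at 4 weeks, a change that was not called (adjusted p = 0.0704). The difference of -2.06 was not called either (adjusted p = 0.0699).

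Cell cycle genes were split. Pcna, the sliding clamp of DNA replication, fell, with log2 fold changes of -1.71 (SE 0.19, adjusted p = 0.000116) in KO and -1.62 (SE 0.11, adjusted p = 2.53e-06) in WT. Of 28 genes of the list, 4 were higher and 1 lower in KO, against 2 higher and 10 lower in WT, with medians of 0.73 and -0.51 and 0 calls for the difference (12 at an unadjusted p under 0.05, and 4 with DESeq2). Mki67, a marker of dividing cells, had 36, 39.4, 3.8, 9.92, 14.8 and 11.8 CPM in KO libraries 1 to 6 of 8 weeks, against 0.517, 5.27 and 0.878 CPM at 4 weeks. Libraries 1, 2, 4, 5 and 6 were above all KO livers of 4 weeks, and library 3 was not. Its change in KO was 3.14 (SE 0.94, adjusted p = 0.0239) and was lost without KO library 1 or 3 of 4 weeks. Aurkb, a mitotic kinase, had 0.242, 0.733 and 1.8 CPM in KO livers at 8 weeks and 0 counts in all 3 KO livers of 4 weeks, at least 4.2-fold higher at 8 weeks against a floor of 3 counts over the group. Its call was lost without KO library 1 or 3 of 4 weeks. The list's count turned with the setting: 9 genes were higher and 1 lower in KO without libraries 3 and 4 of 8 weeks (3 called for the difference), 7 and 1 in DESeq2, 1 and 2 with the length offset, and 0 and 2 without KO library 1 of 4 weeks.

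Many genes of matrix, stellate cells and endothelium were called higher in KO, and 0 were called lower, beside 18.7% and 18.5% of all genes. In bulk liver, more cells of a type and more RNA per cell cannot be told apart. Of 21 extracellular matrix genes 14 were higher and 0 lower in KO (median log2 fold change 1.56), against 11 higher and 3 lower in WT (median 0.49). The stellate list gave 7 higher and 0 lower of 13 in KO and 5 and 2 in WT, and the endothelial list 11 and 0 of 19 in KO and 9 and 3 in WT. The difference was called for 0 genes in these 3 lists in edgeR with all libraries, with 11, 1 and 7 at an unadjusted p under 0.05 and 5, 0 and 3 called by DESeq2 in the matrix, stellate and endothelial lists. Limma voom with sample weights called 5, 0 and 6 higher for the difference. With the length offset 7 endothelial genes were higher in KO, with a median of 0.4 in place of 0.75, and without KO library 1 of 4 weeks 4 stellate genes were. Col1a1, the main fibrillar collagen, had 9.23, 18.2 and 28.4 CPM in KO livers at 8 weeks, against 0.345, 2.53 and 0 CPM at 4 weeks (log2 fold change 4.33, SE 0.72, adjusted p = 0.00123). In WT it had 39, 18.3, 26 and 20.4 CPM at 8 weeks and 3.14, 5.17 and 3.63 CPM at 4 weeks (log2 fold change 2.72, SE 0.32, adjusted p = 7.18e-05). Every KO liver of 4 weeks was below every WT liver of that age, and at 8 weeks the genotypes overlapped. Col14a1, a fibril-associated collagen, rose by 2.47 in KO and 1.23 in WT (adjusted p = 5.05e-05 and 0.000385), and Col6a3, a collagen VI chain, by 3.07 in KO and 2.49 in WT (adjusted p = 5.04e-05 and 1.34e-06). Reln, the reelin that stellate cells make, rose by 2.2 in KO and 1.73 in WT (adjusted p = 0.00195 and 6.64e-05). Eng and Flt4, receptors of endothelial cells for TGF-beta ligands and for lymphangiogenic VEGFs, rose by 1.76 and 2.13 in KO (adjusted p = 7.94e-05 and 0.000195) and by 0.84 and 0.85 in WT. Without KO libraries 3 and 4 of 8 weeks the matrix list kept 14 higher and 0 lower in KO, with 7 of the 21 then called higher for the difference. Of the endothelial genes 4 were then called higher for the difference.

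Of the 13 transcripts of the mitochondrial genome in the list tested, 10 were lower and 0 higher in KO, against 11 lower and 1 higher in WT. One of them, mt-Co3, a subunit of cytochrome c oxidase, had 0.964, 1.68 and 1.81 CPM in KO livers at 8 weeks and 41.7, 108 and 88 CPM at 4 weeks (log2 fold change -5.66, SE 0.30, adjusted p = 1.94e-06). In WT mt-Co3 had 1.13, 0.964, 1.49 and 1.07 CPM at 8 weeks and 61.1, 68.4 and 59.4 CPM at 4 weeks. Rps23, a protein of the small ribosomal subunit, had log2 fold changes of -6.35 in KO and -5.36 in WT (adjusted p = 2.41e-07 and 1.74e-07). For mt-Atp6, a subunit of ATP synthase, they were -5.21 in KO and -4.56 in WT (adjusted p = 8.46e-07 and 5.80e-07). Mitochondrial tRNA genes went both ways in KO, with log2 fold changes of 7.14 for mt-Tn and 6.37 for mt-Tc, and -4.56 for mt-Tp (adjusted p = 7.55e-05, 8.96e-06 and 1.94e-05). Snord104, a small nucleolar RNA, had log2 fold changes of -4.07 in KO and -4.03 in WT (adjusted p = 4.37e-05 and 5.53e-07). Mir6236 had 462, 568 and 752 CPM in KO livers at 8 weeks and 0 counts in the 3 KO livers of 4 weeks, at least 2920-fold higher against a floor of 3 counts over the group. Egfros, a transcript on the strand opposite Egfr, had log2 fold changes of 5.56 in KO and 5.54 in WT (adjusted p = 0.000563 and 0.000855), and reads of the 2 strands may be shared. With the length offset 6 of the 13 mitochondrial transcripts were lower in KO, and their median was -0.61 in place of -1.18. The log2 fold changes in KO were then -4.78 for mt-Co3, -4.24 for mt-Atp6, -5.79 for Rps23, -2.72 for mt-Tp and -2.37 for Snord104, all still called. Age and the change of library type cannot be told apart in these folds.

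Genes whose age change differed between the genotypes stood apart at 4 weeks and close together at 8 weeks. For all 107 such genes the gap between KO and WT was smaller at 8 weeks than at 4 weeks, with a median size of 0.13 at 8 weeks and 1.5 at 4 weeks on the log2 scale. At 8 weeks 100 of the 107 were within 0.5 of WT, and at 4 weeks 0 were. KO was above WT at 4 weeks in 51 of them and below in 56. Over all genes tested the gap was smaller at 8 weeks for 75.3%, with medians of 0.192 at 8 weeks and 0.45 at 4 weeks. Both ages enter the difference itself, so these gaps describe the genes called and test nothing. Of the 612 genes DESeq2 called, 97.5% had the smaller gap at 8 weeks. Without KO libraries 3 and 4 of 8 weeks 271 genes were called, of which 193 (71.2%) had the smaller gap at 8 weeks and 78 the larger, beside 64% of all genes.

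**Figure D3:**
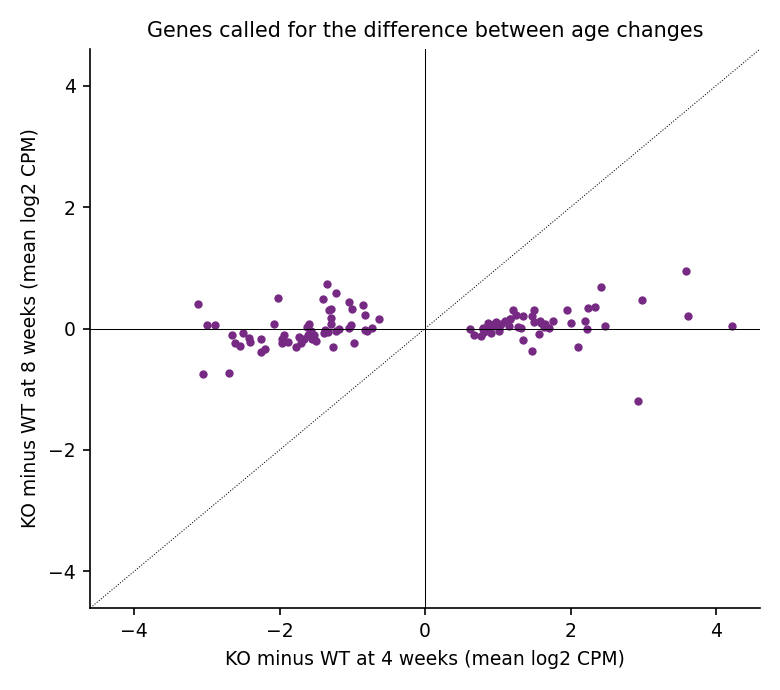
KO minus WT in mean log2 CPM at 4 weeks (horizontal axis) and at 8 weeks (vertical axis) for the 107 genes called for the difference between age changes; the dotted line marks an equal gap at both ages. All 107 points lie closer to 0 on the 8-week axis than on the 4-week axis.

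Interferon-response genes were among those that rose in KO. Type I interferons act through a receptor on the cell surface and switch on antiviral genes, many of which carry a promoter element with repeated GAAA motifs. Of 26 genes of this list tested, 13 were higher and 0 lower at 8 weeks in KO, with a median log2 fold change of 1.32. In WT 3 were higher and 6 lower (median -0.16). The difference was called for 4, all with the KO change above the WT change, against 0.366% of all genes, and DESeq2 called 12. The mean log2 CPM of the list was 1.94, 2.73, 3.23, 3.15, 2.98 and 2.23 in KO libraries 1 to 6 of 8 weeks and 0.99, 1.69 and 1.5 in the KO livers of 4 weeks. In WT it was 3.11, 3.01, 2.98 and 2.93 at 8 weeks and 2.93, 3.13 and 3.4 at 4 weeks. All 3 KO livers of 4 weeks were below every other library of the 16. Without KO libraries 3 and 4 of 8 weeks, 12 genes were higher in KO and the difference was called for 4. Without KO library 1 of 4 weeks, 9 were higher in KO and the difference was called for 3.

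Irf7, the transcription factor that amplifies the interferon response, had 8.3, 13.2 and 22.9 CPM in KO livers at 8 weeks (lowest, median, highest), against 2.76, 3.79 and 3.95 CPM at 4 weeks (log2 fold change 2.11, SE 0.39, adjusted p = 0.00228). In WT livers it had 24, 21.1, 25.3 and 24.7 CPM at 8 weeks and 23.2, 30.3 and 36.4 CPM at 4 weeks (log2 fold change -0.32, SE 0.14, adjusted p = 0.0817). The KO ages did not overlap, and the difference was 2.45 (adjusted p = 0.0365). Rsad2, the antiviral enzyme viperin, had 10.2, 16.1 and 17.9 CPM in KO livers at 8 weeks and 8.27, 5.69 and 5.49 CPM at 4 weeks (log2 fold change 1.26, SE 0.23, adjusted p = 0.00226). Its WT values were 11.4, 12.3, 12.4 and 13 CPM at 8 weeks and 15.7, 13.3 and 19.2 CPM at 4 weeks, a change of -0.38 (SE 0.14, adjusted p = 0.0388) on the log2 scale, so the genotypes changed in opposite directions (difference 1.65, adjusted p = 0.0345). Ifit2 and Ifit3, which bind foreign RNA, rose by 1.4 and 2.22 in KO (adjusted p = 0.00111 and 0.0065), with WT changes of -0.09 and -0.35 that were not called and differences of 1.5 and 2.6 (adjusted p = 0.0372 and 0.0469). These 2 difference calls were lost in 12 and 18 of 26 alternative settings, that of Ifit3 also in limma voom (adjusted p = 0.123). The difference calls of Irf7 and Rsad2 were lost in 8 and 7. Slfn8, a Schlafen family gene outside the list, had 2.3, 3.16 and 4.32 CPM in KO livers at 8 weeks, against 0.517, 1.05 and 0.219 CPM at 4 weeks (log2 fold change 2.43, SE 0.44, adjusted p = 0.00202; difference 2.34, adjusted p = 0.0476). Its difference call was lost in 18 of 26 alternative settings. Several members rose in KO by as much without a call for the difference, among them Oas3 (2.9 in KO, adjusted p = 0.00748; difference 3.06, adjusted p = 0.0836) and Oasl2 (1.55, adjusted p = 0.0061; difference 1.73, adjusted p = 0.062).

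The 250 bases before the start of these genes were searched on both strands for GAAA, any 2 bases and GAAA again, the core of the interferon-stimulated response element (RefSeq promoters, GRCm38.p6). It was present in 10 of 18 interferon-list genes with a promoter in the table (55.6%), in 364 of 10895 genes tested (3.34%), and in 5 of 45 genes with the KO change called above the WT change. Of 36 genes with the KO change called below it, 0 held it. Promoters of Rsad2 (chr12:26456453-26456702, minus strand), Ifit3 (chr19:34583279-34583528, plus strand) and Slfn8 (chr11:83020723-83020972, minus strand, the first of 2 listed starts) are shown because each holds the motif and its gene was called in KO and for the difference. That of Irf7 (chr7:141266425-141266674, minus strand) is shown as a gene called in both tests that does not hold the motif in this window, and Ifit2 did not hold it at either of its 2 listed starts. Capitals mark the motif, read on the gene's strand or its complement, and a match is a match of letters, not evidence of binding.
Rsad2: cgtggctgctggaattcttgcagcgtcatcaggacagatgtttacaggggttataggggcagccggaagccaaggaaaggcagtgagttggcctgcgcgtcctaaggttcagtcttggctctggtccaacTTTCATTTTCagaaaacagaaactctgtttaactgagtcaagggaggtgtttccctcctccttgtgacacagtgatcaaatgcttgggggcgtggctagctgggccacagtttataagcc
Ifit3: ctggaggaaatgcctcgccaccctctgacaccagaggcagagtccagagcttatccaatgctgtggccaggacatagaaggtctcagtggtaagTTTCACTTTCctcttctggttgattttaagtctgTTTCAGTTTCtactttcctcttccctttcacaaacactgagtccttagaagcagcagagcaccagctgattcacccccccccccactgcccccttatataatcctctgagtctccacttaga
Slfn8: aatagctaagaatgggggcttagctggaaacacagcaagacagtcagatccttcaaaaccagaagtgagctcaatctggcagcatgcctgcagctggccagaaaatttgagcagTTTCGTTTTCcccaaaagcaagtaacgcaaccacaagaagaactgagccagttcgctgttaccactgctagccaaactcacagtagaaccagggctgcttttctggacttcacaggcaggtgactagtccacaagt
Irf7: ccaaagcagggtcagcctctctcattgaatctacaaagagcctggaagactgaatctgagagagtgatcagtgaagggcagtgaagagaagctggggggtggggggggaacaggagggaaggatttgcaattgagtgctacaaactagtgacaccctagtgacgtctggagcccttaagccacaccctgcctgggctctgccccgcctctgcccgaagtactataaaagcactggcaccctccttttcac

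Genes of macrophages and of antigen presentation were called higher in KO, 5 of 16 and 6 of 16, and 0 lower. Siglec1, the sialic acid receptor CD169 of resident macrophages, had 17.6, 22.9 and 25.2 CPM in KO livers at 8 weeks, against 4.14, 4.43 and 2.85 CPM at 4 weeks (log2 fold change 2.55, SE 0.20, adjusted p = 1.66e-05). In WT livers it had 33.3, 27.1, 29.6 and 26.9 CPM at 8 weeks and 14.8, 18.8 and 22.5 CPM at 4 weeks (log2 fold change 0.65, SE 0.15, adjusted p = 0.00382). It rose in both genotypes and further in KO, where all 6 livers of 8 weeks were still below all 4 of WT (difference 1.91, adjusted p = 0.0079). Siglec1 is outside the list of 16 macrophage and Kupffer cell genes. Of these 16, 5 were higher and 0 lower in KO, against 1 higher and 9 lower in WT. The difference was called for 1 of them, which ran opposite to WT (9 at an unadjusted p under 0.05). Without KO library 1 of 4 weeks 2 were higher in KO, and without KO libraries 3 and 4 of 8 weeks 9 were, with 5 called higher for the difference. DESeq2 called 9 higher in KO and 3 for the difference, and voom 5 for the difference, beside 18.7% and 0.366% of all genes. Their mean log2 CPM was 5.32, 5.33, 4.25, 4.17, 5.16 and 5.29 in KO libraries 1 to 6 of 8 weeks and 4.2, 4.65 and 4.55 at 4 weeks, against 4.93, 4.34, 4.3 and 4.51 at 8 weeks and 4.88, 5.16 and 5.14 at 4 weeks in WT. KO libraries 3 and 4 were the 2 lowest of their group for 14 of the 16 genes. Of 16 antigen presentation genes 6 were higher and 0 lower in KO and 3 and 3 in WT. The KO counts were 7 and 2 in DESeq2 and 5 and 0 with the length offset. They were 4 and 1 without KO library 1 of 4 weeks, and 6 and 1 without KO libraries 3 and 4 of 8 weeks. Tapbp, which loads peptides onto class I molecules, rose by 1.4 in KO and 0.97 in WT (adjusted p = 6.08e-05 and 0.000158), and H2-Ab1, a class II chain, by 2.12 in KO (adjusted p = 0.00543) with a WT change of 0.2 that was not called. Neutrophil markers gave 0 calls of 8 in KO (2 at an unadjusted p under 0.05, and 1 with DESeq2), and lymphocyte markers 1 higher of 15 in KO (0 higher and 1 lower without KO library 1 of 4 weeks) and 6 lower in WT.

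Sulfation showed 1 gene that ran opposite to WT. Sult1b1, a cytosolic sulfotransferase of thyroid hormones and phenols (chr5:87513339-87538195), had 20.0, 28.1 and 38.4 CPM in KO livers at 8 weeks, against 96, 81.8 and 86.9 CPM at 4 weeks (log2 fold change -1.61, SE 0.19, adjusted p = 0.000144). In WT livers it had 25.4, 25.6, 26.8 and 25.5 CPM at 8 weeks and 19.7, 19.6 and 17.8 CPM at 4 weeks (log2 fold change 0.45, SE 0.10, adjusted p = 0.00292). The 3 KO livers of 4 weeks were above all other libraries, and at 8 weeks KO and WT overlapped. The difference was -2.05 (SE 0.23, adjusted p = 0.00263). Of 19 sulfation genes, 1 was higher and 2 lower in KO, against 5 higher and 3 lower in WT. Sult1d1, which sulfates catecholamines and phenols, fell in both genotypes, with 117, 187 and 284 CPM in KO livers at 8 weeks against 2334, 529 and 874 CPM at 4 weeks (log2 fold change -2.68, SE 0.41, adjusted p = 0.000707; WT -1.24, adjusted p = 0.0132).

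Hamp, which encodes hepcidin, the hormone that blocks iron export, fell in KO. It had 192, 404 and 792 CPM in KO livers at 8 weeks, against 1536, 3196 and 1858 CPM at 4 weeks (log2 fold change -2.33, SE 0.39, adjusted p = 0.0013). In WT livers it had 282, 292, 414 and 409 CPM at 8 weeks and 180.2, 309 and 88.7 CPM at 4 weeks (log2 fold change 0.87, SE 0.34, adjusted p = 0.0541). All 3 KO livers of 4 weeks exceeded every other library, and the difference was -3.19 (adjusted p = 0.0365). This difference call was lost in 10 of 26 alternative settings. Of the 11 erythroid genes tested 2 were higher and 1 lower in KO, against 2 higher and 5 lower in WT. Alas2, the first enzyme of haem synthesis in red cells, and Hba-a2, a globin chain, rose by 2.03 and 3.33 in KO (adjusted p = 0.0123 and 0.0113), without calls for the difference. Klf1, a transcription factor of red cell precursors, ran opposite to WT, with log2 fold changes of -0.8 in KO and 1.61 in WT (adjusted p = 0.0341 and 0.00424) and a difference of -2.4 (adjusted p = 0.0365). DESeq2 called 4 erythroid genes higher and 1 lower for the difference, and without KO libraries 3 and 4 of 8 weeks 5 were higher and 1 lower. No erythroid gene was called lower in KO without those 2 libraries, without KO library 1 of 4 weeks or with the length offset. The Alas2 call was lost without KO library 2 of 4 weeks, and that of Hba-a2 with replicate number as a block. Ugt1a9, a glucuronosyltransferase of phenols and drugs, had 27, 38.9 and 77.2 CPM in KO livers at 8 weeks, against 11.2, 10.5 and 7.68 CPM at 4 weeks (log2 fold change 2.14, SE 0.37, adjusted p = 0.00161). Its WT values were 35.2, 49.8, 44 and 42.6 CPM at 8 weeks and 89.3, 38.9 and 48.2 CPM at 4 weeks, a change that was not called, and the difference was 2.59 (adjusted p = 0.0365). The difference calls of Klf1 and Ugt1a9 were each lost in 9 of 26 alternative settings. Ugt1a genes share their last exons, so reads of 1 member may be counted to another. Of 19 glucuronidation genes 5 were higher and 0 lower in KO, against 7 and 4 in WT, and the KO count was 9 in DESeq2 and 3 without KO library 1 of 4 weeks.

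Actg1, Klf10, Xpa and Emc2 fell in KO from levels above WT at 4 weeks. Actg1, cytoplasmic gamma-actin, had 27.7, 47.3 and 106 CPM in KO livers at 8 weeks, against 248, 264 and 204 CPM at 4 weeks (log2 fold change -2.13, SE 0.38, adjusted p = 0.00181), and 33.6, 24.1, 25 and 19.9 CPM at 8 weeks and 19.6, 19.6 and 19.9 CPM at 4 weeks in WT. Even at 8 weeks 4 of the 6 KO livers lay above all 4 WT livers. The difference was -2.51 (adjusted p = 0.0387). Klf10, a transcription factor induced by TGF-beta, had a log2 fold change of -2.06 in KO (adjusted p = 0.000836; difference -2.09, adjusted p = 0.0402), with 153, 78.4 and 40.2 CPM in the 3 KO livers of 4 weeks and 16.6, 13.4 and 20.0 CPM in the WT livers of 4 weeks. Xpa, a damage-recognition protein of nucleotide excision repair, had log2 fold changes of -2.86 in KO and -1.88 in WT. For Emc2, a subunit of the endoplasmic reticulum membrane protein complex, they were -2.08 in KO and -1.27 in WT. Their differences of -0.98 and -0.79 were called (adjusted p = 0.0444 and 0.0433). The difference calls of Xpa and Emc2 were each lost in 17 of 26 alternative settings, and those of Actg1 and Klf10 in 14.

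Adra1b, the alpha-1B adrenergic receptor of hepatocytes, rose in KO from below the WT range. It had 21.1, 30.8 and 39.9 CPM in KO livers at 8 weeks, against 7.93, 2.74 and 5.92 CPM at 4 weeks (log2 fold change 2.43, SE 0.35, adjusted p = 0.000561). In WT livers it had 31.9, 33.1, 35.1 and 32 CPM at 8 weeks and 23.6, 25.5 and 24.9 CPM at 4 weeks (log2 fold change 0.43, SE 0.09, adjusted p = 0.00252). Its difference was 2.01 (adjusted p = 0.0365). Plxnd1, a semaphorin receptor of endothelial cells, rose by 2.56 in KO and 1.18 in WT, and Sh3pxd2a, a scaffold of invasive podosomes, by 2.45 in KO and 0.88 in WT. Their differences of 1.39 and 1.58 were just past the threshold (adjusted p = 0.0491 and 0.0491). These 2 calls were lost in 17 and 21 of 26 alternative settings, and that of Adra1b in 7.

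**Figure D4:**
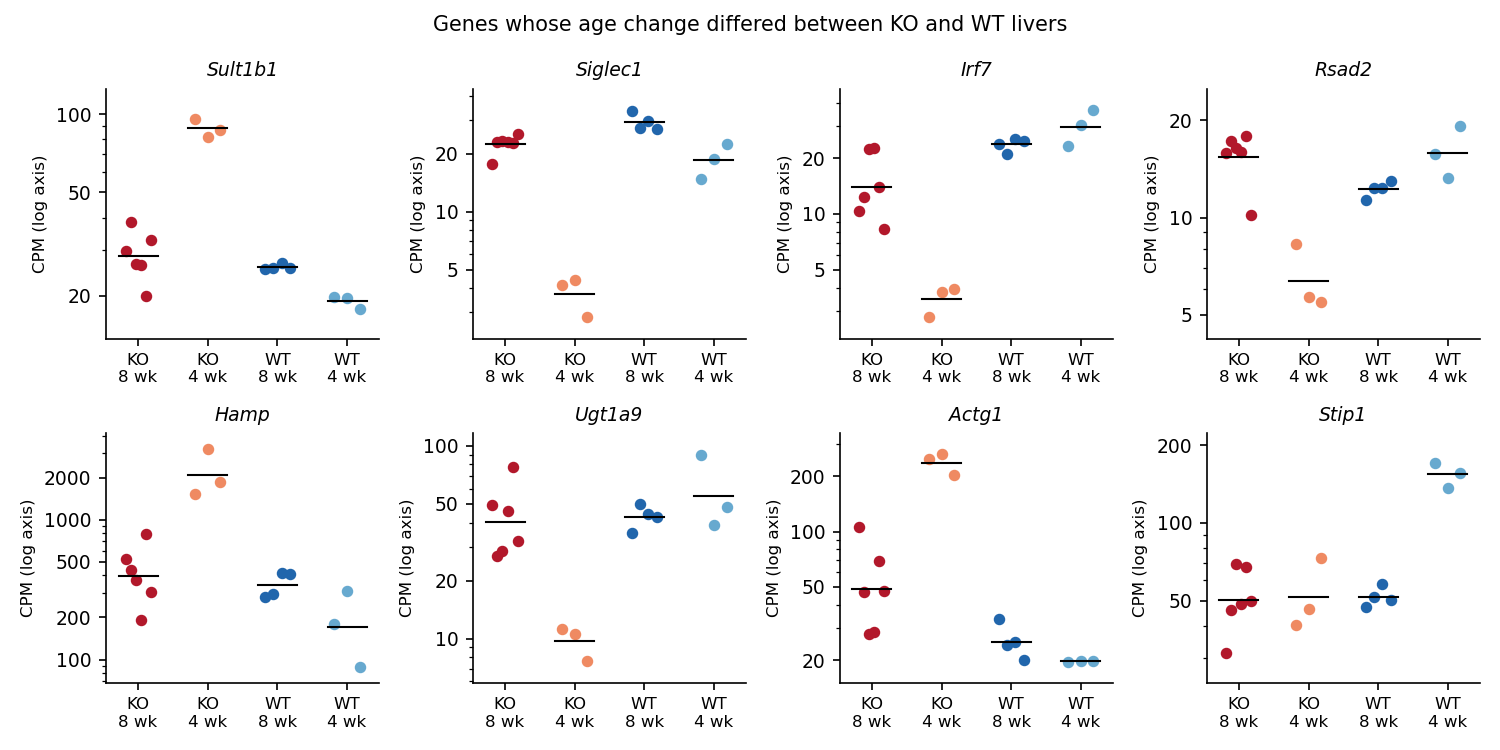
CPM on a log axis in each library of KO at 8 weeks, KO at 4 weeks, WT at 8 weeks and WT at 4 weeks (points) with the geometric mean (lines), for 8 genes called for the difference. In 7 of the panels the 4-week KO points stand apart from the other 3 groups, and for Stip1 the 4-week WT points do.

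In a further 21 genes the WT change was called, the KO change was not, and the difference was. The KO livers of 4 weeks were near the 8-week level in the genes given here. Stip1, a co-chaperone that links HSP70 to HSP90, had 31.3, 49 and 69.6 CPM in KO livers at 8 weeks, against 40.3, 46.6 and 73.3 CPM at 4 weeks (log2 fold change -0.04, SE 0.27, adjusted p = 0.932). In WT livers it had 47.4, 51.8, 58.3 and 50.4 CPM at 8 weeks and 171, 137 and 156 CPM at 4 weeks (log2 fold change -1.56, SE 0.11, adjusted p = 2.12e-06; difference 1.54, adjusted p = 0.0489). Dnajb1, an HSP40 co-chaperone, Cd1d1, which presents lipid antigens, and Blvrb, a biliverdin reductase, also fell in WT (log2 fold changes -1.17, -1.36 and -1.07; adjusted p = 0.000399, 2.07e-05 and 3.34e-05). Their KO changes were 0.15, 0.1 and 0.15 and were not called. Abca6, a lipid transporter of the ABC family, had 421, 533 and 605 CPM in KO livers at 8 weeks, against 556, 444 and 375 CPM at 4 weeks. It had 483, 511, 514 and 535 CPM in WT livers at 8 weeks and 185, 194 and 179 CPM at 4 weeks (log2 fold change 1.47, SE 0.10, adjusted p = 1.61e-06; difference -1.25, adjusted p = 0.0365). Gtf2a1, a subunit of the general factor TFIIA, Tmx4, a thioredoxin-related membrane protein, and Tarbp1, an RNA methyltransferase, rose in WT by 1.45, 1.54 and 2.0 (adjusted p = 2.05e-06, 1.33e-05 and 4.59e-05). In KO they changed by 0.42, 0.0 and 0.09, without a call. The difference calls of Stip1, Dnajb1, Cd1d1 and Blvrb were lost in 19, 15, 17 and 18 of 26 alternative settings. Those of Abca6, Gtf2a1, Tmx4 and Tarbp1 were lost in 9, 11, 18 and 15.

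Sex-biased genes gave few calls in KO in edgeR, and the KO livers of 8 weeks differed widely among themselves. The 34 male-biased genes had a mean log2 CPM of 2.35, 2.39, 7.38, 7.52, 3.21 and 2.22 in KO libraries 1 to 6 of 8 weeks and 2.54, 2.4 and 2.58 at 4 weeks. In WT the means were 7.15, 7.18, 6.87 and 6.71 at 8 weeks and 5.83, 6.25 and 6.44 at 4 weeks. KO libraries 3 and 4 were above every WT library, and the other 4 lay below every WT library. Those 2 libraries were the 2 highest of 6 for 30 of the 34 genes, against 20.6% of all genes. Of the 34, 2 were higher and 1 lower in KO, with a median log2 fold change of 3.11, or 2.82 with the 4 genes at 0 counts in KO livers of 4 weeks set to their lower bounds. Without libraries 3 and 4 the median was 0.34, with 4 higher and 5 lower, and 1 was called higher and 6 lower for the difference. DESeq2, with all libraries, called 17 higher and 1 lower in KO and 7 higher for the difference, where edgeR called 0 (9 at an unadjusted p under 0.05). In WT 15 rose and 4 fell. The 30 female-biased genes showed the reverse order, with 5.39, 5.34, 1.24, 1.35, 5.21 and 5.4 log2 CPM in KO libraries 1 to 6 of 8 weeks, 3.95, 5.22 and 4.98 in KO at 4 weeks, 1.47, 1.72, 1.79 and 2.21 in WT at 8 weeks and 3.24, 2.92 and 2.71 in WT at 4 weeks. They gave 2 higher and 1 lower in KO, against 4 higher and 15 lower in WT, and 5 higher and 1 lower in KO without libraries 3 and 4. DESeq2 called 4 higher and 2 lower in KO.

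Mup20, Slco1a1, Mup7 and Elovl3 repeated this pattern as single genes. Mup20, the male urinary pheromone darcin, had 5.25, 4.82, 3261, 3361, 68.4 and 4.17 CPM in KO libraries 1 to 6 of 8 weeks, against 19.7, 12.4 and 11 CPM at 4 weeks (log2 fold change 6.28, SE 2.64, adjusted p = 0.0848). Its WT values were 1946, 2207, 1179 and 983 CPM at 8 weeks and 678, 1039 and 1153 CPM at 4 weeks. Slco1a1, a male-biased organic anion and bile acid carrier, had 38.3, 46.4, 819, 939, 20.9 and 15.3 CPM in KO libraries 1 to 6 of 8 weeks, against 16.7, 11.6 and 25.2 CPM at 4 weeks (adjusted p = 0.0642). Mup7 was called in KO (log2 fold change 10.84, SE 3.74, adjusted p = 0.0433), but its 8-week values were 12.3, 2.64, 5707, 6398, 5.72 and 3.18 CPM in libraries 1 to 6. The Mup7 call was lost without library 3 or 4 of 8 weeks or any 1 of the 4-week KO libraries, and reads of the near-identical Mup genes may be shared. Elovl3, a male-biased fatty acid elongase, had 0.153, 0.252, 116, 199, 0.0860 and 0.190 CPM in KO libraries 1 to 6 of 8 weeks and 0.172, 0.211 and 0.439 CPM at 4 weeks (adjusted p = 0.111). Cyp2f2, a male-biased cytochrome P450, was called in both genotypes, with log2 fold changes of 2.57 (SE 0.64, adjusted p = 0.0105) in KO and 1.12 (SE 0.16, adjusted p = 0.000256) in WT. Cyp3a44, a female-biased one, rose by 3.81 in KO and 3.66 in WT (adjusted p = 0.0018 and 2.14e-05).

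**Figure D5:**
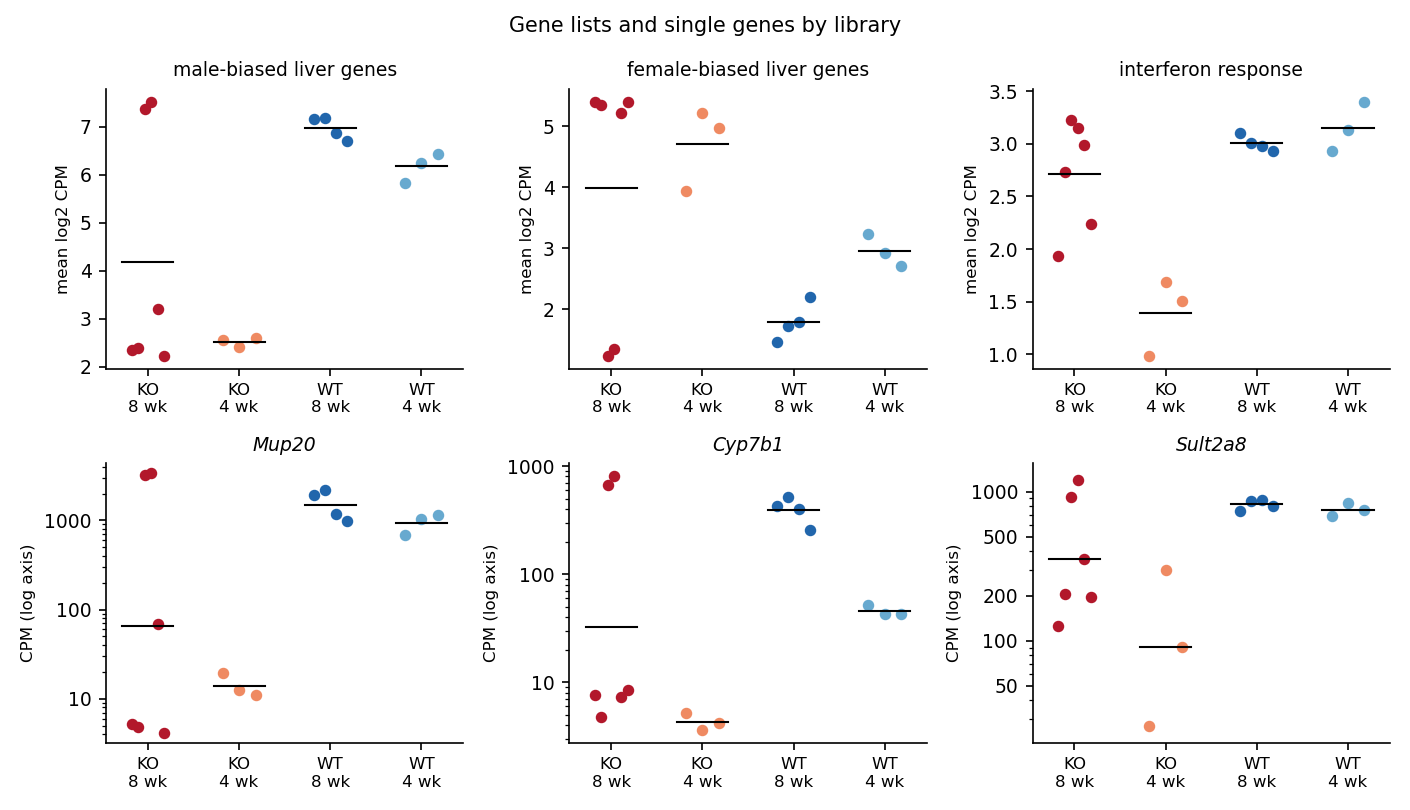
Top, mean log2 CPM of the male-biased, female-biased and interferon-response lists in each library (points) with the group mean (lines); bottom, CPM of Mup20, Cyp7b1 and Sult2a8 on a log axis with the geometric mean. In KO at 8 weeks 2 of the 6 points of the male-biased list stand above 7 and 4 below 3.3, and the female-biased list shows the opposite order.

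Bile acid genes also varied widely in KO at 8 weeks, and few were called. Of 18 synthesis genes 1 was higher and 1 lower in KO, against 6 and 6 in WT. Cyp7a1, the rate-limiting enzyme of bile acid synthesis, had 22.2, 31.7, 395, 375, 501 and 199 CPM in KO libraries 1 to 6 of 8 weeks, against 51.9, 52.3 and 95.2 CPM at 4 weeks (log2 fold change 1.93, SE 0.92, adjusted p = 0.122). Libraries 3 to 6 were above all KO livers of 4 weeks, and libraries 1 and 2 below. In WT it had 559, 981, 592 and 474 CPM at 8 weeks and 69.4, 54.8 and 22.9 CPM at 4 weeks (log2 fold change 3.75, SE 0.39, adjusted p = 3.17e-05). The difference of -1.8 was not called (adjusted p = 0.428). Cyp7b1, the male-biased oxysterol 7-alpha-hydroxylase of the alternative route, had 7.6, 4.82, 661, 816, 7.27 and 8.45 CPM in KO libraries 1 to 6 of 8 weeks, against 5.17, 3.58 and 4.17 CPM at 4 weeks (log2 fold change 5.86, SE 2.22, adjusted p = 0.0608). WT livers had 423, 518, 403 and 257 CPM at 8 weeks and 51.5, 43.1 and 42.7 CPM at 4 weeks (log2 fold change 3.14, SE 0.23, adjusted p = 3.00e-06). The difference was 2.73 with all libraries (adjusted p = 0.548) and -2.43 without KO libraries 3 and 4 (adjusted p = 0.00646), a change of sign. Cyp8b1, which makes cholic acid, was not called in KO (0.04, adjusted p = 0.967) or WT (0.24, adjusted p = 0.676).

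Of 18 transporters of bile acids and organic anions, 6 were higher and 0 lower in KO, against 8 and 1 in WT. Abcb11, the export pump for bile salts, rose in both genotypes: it had 219, 519 and 743 CPM in KO livers at 8 weeks and 178, 122 and 186 CPM at 4 weeks (log2 fold change 1.62, SE 0.35, adjusted p = 0.00523). The WT values were 552, 624, 492 and 544 CPM at 8 weeks and 377, 185 and 265 CPM at 4 weeks (log2 fold change 1.02, SE 0.21, adjusted p = 0.00255). Slco2b1, an uptake carrier of organic anions, rose by 1.6 in KO and 0.97 in WT (adjusted p = 0.000141 and 7.32e-05). Slco1a4, a female-biased carrier, had 947, 526, 23.6, 36.7, 305 and 411 CPM in KO libraries 1 to 6 of 8 weeks and 571, 782 and 690.4 CPM at 4 weeks (adjusted p = 0.469). Abcc4, a basolateral exporter, was not called in KO (1.04, adjusted p = 0.33), nor was Nr0b2, the bile acid-induced repressor SHP (0.33, adjusted p = 0.702), which fell in WT (log2 fold change -1.3, adjusted p = 0.00106).

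Sult1e1 and Sult2a1 had wide ranges in KO livers of both ages, and Sult2a8 was below every WT liver in all 3 KO livers of 4 weeks. Sult1e1, the estrogen sulfotransferase, had 399, 445, 0.848, 0.281, 19.2 and 340.1 CPM in KO libraries 1 to 6 of 8 weeks, against 1826, 537 and 1275 CPM at 4 weeks (log2 fold change -2.59, SE 1.52, adjusted p = 0.203). In WT it had 0.648, 0.337, 0.624 and 0.837 CPM at 8 weeks and 1.29, 4.13 and 2.05 CPM at 4 weeks. Sult2a1, a hydroxysteroid and bile acid sulfotransferase, had 309, 151, 0.202, 0.241, 7.91 and 419.9 CPM in KO libraries 1 to 6 of 8 weeks, against 8.62, 1161 and 1801 CPM at 4 weeks (log2 fold change -2.74, SE 1.80, adjusted p = 0.254), and reads of its paralogs may be shared. In libraries 3 and 4 both genes were below 1 CPM, as in WT livers of 8 weeks. Sult2a8, a male-biased bile acid sulfotransferase of mouse liver, had 126, 205, 916, 1189.7, 355 and 196 CPM in KO libraries 1 to 6 of 8 weeks, against 27.1, 300.4 and 90.8 CPM at 4 weeks (log2 fold change 1.84, SE 0.91, adjusted p = 0.137). Its WT values were 742, 865, 883 and 795 CPM at 8 weeks and 684, 832 and 748 CPM at 4 weeks.

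Targets of the xenobiotic receptors CAR and PXR gave 0 higher and 3 lower of 21 in KO, against 6 and 4 in WT. DESeq2 called 3 higher in KO, and 2 were higher with the length offset or without KO libraries 3 and 4 of 8 weeks. Cyp3a13 and Cyp3a25, cytochromes P450 of drug oxidation, were lower at 8 weeks in KO, with log2 fold changes of -1.26 and -1.6 (adjusted p = 0.0105 and 0.00522), with WT changes of 0.06 and -0.56 that were not called. Cyp2b10, the marker target of CAR, had 65.9, 38.8, 0.525, 0.442, 40.0 and 30.5 CPM in KO libraries 1 to 6 of 8 weeks and 15.7, 5.69 and 12.3 CPM at 4 weeks (adjusted p = 0.413). Cyp3a11, the main PXR target, changed by -0.01 (adjusted p = 0.99).

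Among stress and inflammation lists, 7 of 21 endoplasmic reticulum stress and ATF4 targets were lower and 1 higher in KO, against 11 and 2 in WT and beside 18.5% of all genes lower in KO. The 7 became 2 with the length offset, 3 without KO library 1 of 4 weeks and 4 without KO libraries 3 and 4 of 8 weeks. Ddit3, the stress-induced factor CHOP, had log2 fold changes of -1.51 in KO and -1.66 in WT (adjusted p = 0.00374 and 0.000542). Fgf21, a hormone of fasting and stress, had log2 fold changes of -3.52 in KO and -3.41 in WT (adjusted p = 0.0257 and 0.000149), and its KO call was lost without KO library 2 or 3 of 4 weeks, without library 6 of 8 weeks, and without libraries 3 and 4. Of 27 acute phase genes 4 were higher and 2 lower in KO, against 10 and 2 in WT, with 2 and 1 in KO without KO library 1 of 4 weeks and 4 and 4 in DESeq2. Steap4, a metalloreductase induced in inflammation, rose by 2.29 in KO and 1.8 in WT (adjusted p = 0.0021 and 0.000116), and Saa3 was not called in KO (1.41, adjusted p = 0.103). NRF2 targets gave 0 calls of 20 in KO (2 at an unadjusted p under 0.05, and 2 with DESeq2, and 4 higher without KO libraries 3 and 4), against 4 higher and 3 lower in WT. Of 19 clock genes 1 was higher and 2 lower in KO, with 0 lower without KO library 1 of 4 weeks. Ciart, a repressor of the clock, had a log2 fold change of -1.77 (adjusted p = 0.0081), a call that was lost without KO library 1 of 4 weeks. Clock rose by 0.67 (adjusted p = 0.0129), a call that was lost without KO library 2 of 4 weeks. The time of day of sampling is not given in the sources used here. Immediate early genes gave 0 higher and 1 lower of 16 in KO (0 lower with the length offset, without KO library 1 of 4 weeks or without KO libraries 3 and 4), with mean log2 CPM of 5.0, 3.29, 2.38, 1.77, 3.29 and 2.89 in KO libraries 1 to 6 of 8 weeks and 5.21, 3.07 and 3.92 at 4 weeks, against 2.14 to 2.65 in all WT libraries. Library 1 was the highest of both KO groups.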

How the data were processed

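Poly(A) RNA of whole male liver was sequenced. Each deposited table lists unnormalised read counts by Ensembl identifier for 1 liver. The aligner was HISAT2 2.0.4, the build GRCm38 and the counter HTSeq 0.6.1p1, as the submitters' processing notes name them. The gene models and the strand option are not given in the sources used here, so reads of overlapping or antisense genes cannot be assigned with certainty. The 4-week files are marked as paired-end and the 8-week files as single-end, per the file names. Reads outside genes (13.91% to 17% in KO at 8 weeks, 7.765% to 9.653% in KO at 4 weeks, 15.39% to 17.78% in WT at 8 weeks, 6.132% to 6.918% in WT at 4 weeks) were left out of library sizes. Symbols were matched for 47224 of 47729 identifiers, and coordinates are those of GENCODE M21 on GRCm38.

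Tests were run with edgeR 4.0.16 under R 4.3.3: filterByExpr over the 16 libraries, TMM scaling, and 2-sided quasi-likelihood tests with Benjamini-Hochberg adjustment over the 15302 genes tested and a threshold of 0.05. The KO ages were fitted on the 9 KO libraries, the WT ages on the 7 WT libraries, and the KO age change minus the WT age change on all 16; the biological coefficient of variation was 0.383, 0.164 and 0.312. Fold changes are 8 weeks over 4 weeks, and the SE is the absolute value over the root of the F statistic. CPM values use TMM factors of the 16 libraries; log2 CPM has a prior count of 2. DESeq2 1.42.0 and limma 3.58.1 were alternatives. Scripts were tested on simulated counts.

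The part of the series, the 36 gene lists (666 symbols, 4 unmatched) and the rule for named genes were chosen with earlier results of these data known. That rule names 24 core genes, the 5 largest rises and falls in KO among shared genes and among genes called in KO and for the difference, and the 4 largest rises and falls in WT among genes called in WT and for the difference only. These needed a mean log2 CPM of at least 1, ages that did not overlap, and a symbol that is no predicted-gene name. It adds the 2 smallest adjusted p of each list with at least 3 calls. A gene that the rule names is not reported here. Ifit3, Klf1, Oas3 and Oasl2 were named after their values were seen. Replicate pairs of a group differed beyond sampling noise (smallest chi-square per degree of freedom 8.34). P-values rest on the spread between these samples, which may be partly technical.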

Additional observations from a re-analysis of the deposited data

Results flagged for a closer look

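Among the 100 named genes, each checked in the KO and the WT livers of 8 weeks, 7 of the 200 groups held a library far from the rest, where chance flags about 1 in 20. In KO at 8 weeks library 6 was low for Rsad2 (10.2 CPM, others 15.9 to 17.9), library 1 was low for Siglec1 (17.6 CPM, others 22.7 to 25.2), and library 2 was low for Slc1a2 (153 CPM, others 329 to 469) and mt-Co3 (0.964 CPM, others 1.48 to 1.81). In WT at 8 weeks library 4 was low for Cyp2f2 (606 CPM, others 776 to 803) and Cyp3a44 (15.9 CPM, others 20.4 to 20.9) and high for Peg3 (14.3 CPM, others 11 to 11.4). Leaving out those libraries kept the KO calls of Rsad2, Siglec1, Slc1a2 and mt-Co3.

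The KO age change and the WT age change differed by the test of the difference for 23 named genes. In KO the log2 change was higher than in WT by 2.59 for Ugt1a9, 2.45 for Irf7, 2.34 for Slfn8, 2.01 for Adra1b, 1.91 for Siglec1, 1.65 for Rsad2, 1.58 for Sh3pxd2a, 1.54 for Stip1, 1.5 for Ifit2, 1.47 for Cd1d1, 1.39 for Plxnd1, 1.33 for Dnajb1 and 1.23 for Blvrb. The difference was negative for Hamp (-3.19), Actg1 (-2.51), Klf10 (-2.09), Sult1b1 (-2.05), Tarbp1 (-1.9), Tmx4 (-1.53), Abca6 (-1.25), Gtf2a1 (-1.02), Xpa (-0.98) and Emc2 (-0.79). Adjusted p ran from 0.00263 for Sult1b1 to 0.0491 for Plxnd1 and Sh3pxd2a. Only Sult1b1 kept its difference call in all 26 alternative settings.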

How the results depend on the processing

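The count of genes called in KO (5695) ran from 4294 to 6362 with 1 library left out and was 6188 in DESeq2, 5282 without KO libraries 3 and 4 of 8 weeks, and 4920 with the length offset, where 2006 were higher and 2914 lower. In WT (7781) it ran from 6983 to 7637 with 1 library left out, and was below that of KO in 2 settings: with a log2 fold change of at least 1 (3814 in KO, 3543 in WT) and in 1 fit of 16 libraries (7150 in KO, 5452 in WT). The count for the difference (107) was less stable: it ran from 2 to 429 with 1 library left out, and was 612 in DESeq2, 704 in limma voom with weights, 17 with no filter on low counts, 46 with the 8-week counts thinned to a 4-week depth, 54 in a fit of 22 libraries and 271 without KO libraries 3 and 4 of 8 weeks. The share of these calls with the KO change above the WT change was 52.3% in the main test and 28.4% in voom. It was 38.4% without KO library 1 of 4 weeks, 66.8% without libraries 3 and 4, and 36.4% with the length offset. Genes called in KO and for the difference (65) numbered 373 in DESeq2 and 161 without libraries 3 and 4. Genes called in WT and for the difference alone (21) numbered 172, 65 and, with the length offset, 11. Opposite calls (44) numbered 70 in DESeq2 and 28 in the fit of 16 libraries, where 2863 genes were undecided. The cause of these shifts was not tested. Clock turned to -0.09 in KO with the length offset (adjusted p = 0.727), and the difference of Cyp7b1 turned to -2.43 without libraries 3 and 4 (adjusted p = 0.00646). Same-numbered replicates did not pair (correlations of their deviations up to 0.087); with replicate number as a block, 1853 genes were called in KO and 3 for the difference.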
